A study of Mus musculus with 18 samples.

Results

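Goblet cells are the mucus-secreting cells of the intestinal epithelium, and 9 of their genes were followed through postnatal development of the ileum, the distal small intestine of the mouse. The genes were the secreted mucus proteins Muc2, Fcgbp, Clca1, Zg16, Tff3 and Retnlb, the folding enzyme Agr2, and the lineage factors Atoh1 and Spdef. They were chosen by name, with earlier results of these data known. They were 9 of 18194 genes that had a probe set with a single annotated symbol. Each was represented by its probe set with the highest mean over all arrays. All 9 were among the 8631 genes tested, those that reached a log2 level of 6 on at least 3 arrays. For Zg16, Retnlb and Spdef it was reached only on arrays from weaned mice, so that these 3 genes could enter the test only by being high there.

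The series held 18 Affymetrix arrays, on which short probes read each transcript, from C57BL/6 mice of 6 ages: postnatal days 4, 7, 9, 11, 24 and 32, with 3 individual mice at each. The ileal pieces held every layer of the gut wall, and the labels name no treatment, genotype, sex or litter for any group. Day 11 and day 24 were taken to lie on either side of weaning, as is usual in laboratory mice, which gave 12 arrays before and 6 after it. The titles of day 7 replicate 3 and day 9 replicate 2 carry a common number, and each array was kept at the age in its own title. Because the pieces were whole tissue, more goblet cells and more RNA per goblet cell cannot be told apart in any value below.

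Goblet cells arise from crypt progenitors in which Notch signalling is low, so that Atoh1 escapes repression and commits the cell to a secretory fate; Spdef, an ETS-family factor, then promotes goblet cell maturation. The mature cell stores Muc2, a very large gel-forming mucin, in granules together with other mucus proteins, and releases them as the gel that keeps bacteria away from the epithelium. In the mouse, crypts mature after birth, and the diet later changes from milk to solid food while the bacterial community shifts with it.

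Values are log2 expression levels as deposited, so that a difference of 1 is a doubling. Levels of different genes come from different probes and were not set against each other. The median over all probe sets of an array was 3.88 to 3.97, and a level near that could not be separated from background. Arrays of an age correlated at 0.983 or more across probe sets. Xist, a transcript of female cells, was low on 3 of 12 suckling and 5 of 6 weaned arrays, and the hybridization controls fell into a higher group (4 arrays before, all 6 after) and a lower group of 8 arrays before weaning. With the Xist level as a covariate, with the control group as a block, or on the higher group alone, all 9 genes kept their call between the stages.

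Atoh1, the basic helix-loop-helix factor without which intestinal secretory cells do not form, lies on chromosome 6 from 64729125 to 64731245 (coordinates of the mouse assembly GRCm38.p6 throughout). Its log2 level before weaning was 5.86, 5.28 and 5.95 on day 4, 5.94, 5.86 and 6.03 on day 7, 6.17, 5.94 and 6.37 on day 9, and 5.86, 6.33 and 5.86 on day 11. In weaned mice it was 8.21, 7.92 and 7.76 on day 24, and 8.10, 8.53 and 8.34 on day 32. The lowest array after weaning, at 7.76, lay above the highest before it, at 6.37. The age means were 5.69 ± 0.36, 5.94 ± 0.08, 6.16 ± 0.22 and 6.02 ± 0.27 through day 11, then 7.96 ± 0.22 and 8.33 ± 0.22 (SD, n = 3 mice each). Neighbouring ages overlapped within each stage.

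Spdef, chromosome 17 from 27714446 to 27731003, stood lower on its own probe set but followed the same division. Its level was 5.15, 5.29 and 5.42 on day 4, 5.60, 5.54 and 5.35 on day 7, 5.59, 5.77 and 5.66 on day 9, and 5.50, 5.51 and 5.57 on day 11. On the weaned arrays it was 6.74, 6.80 and 6.78 on day 24, and 6.18, 6.82 and 7.02 on day 32. The stages did not overlap, although day 32 replicate 1, at 6.18, lay closer to the highest suckling array, at 5.77, than to the next array of the weaned mice, at 6.74. Of the neighbouring age means before weaning, day 9 (5.67 ± 0.09) lay above day 11 (5.53 ± 0.04) with no overlap of arrays, and the others overlapped.

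The RefSeq promoter table held a window for 5 of the 9 genes. The 250 bases upstream of the start are shown for 4 of them, each with some of the letters marked below. The window of Atoh1, the fifth, held none of these letters and is not shown. Each is read 5′ to 3′ on the strand of its gene, from chr17:27728952-27729201 (minus strand) for Spdef, chr7:141690090-141690339 (plus) for Muc2, chr7:28070986-28071235 (plus) for Fcgbp and chr12:35992675-35992924 (plus) for Agr2. The Spdef window precedes the transcript start of the promoter table and lies inside the full span of the gene. Capitals mark the letters CAGCTG, an E-box of the kind bound by basic helix-loop-helix factors such as Atoh1, or TTTATG, a form bound by the intestinal homeobox factors Cdx1 and Cdx2 that reads CATAAA on the opposite strand, or the TATA box TATAAA.
Spdef: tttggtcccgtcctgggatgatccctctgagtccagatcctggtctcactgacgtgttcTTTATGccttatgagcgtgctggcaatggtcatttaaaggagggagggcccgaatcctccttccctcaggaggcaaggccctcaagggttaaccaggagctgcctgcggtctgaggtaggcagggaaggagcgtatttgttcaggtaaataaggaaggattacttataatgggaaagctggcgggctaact
Muc2: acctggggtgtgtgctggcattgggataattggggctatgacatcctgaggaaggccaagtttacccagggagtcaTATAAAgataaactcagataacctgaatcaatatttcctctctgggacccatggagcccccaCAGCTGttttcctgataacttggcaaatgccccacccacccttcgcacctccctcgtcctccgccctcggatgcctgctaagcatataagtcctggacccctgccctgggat
Fcgbp: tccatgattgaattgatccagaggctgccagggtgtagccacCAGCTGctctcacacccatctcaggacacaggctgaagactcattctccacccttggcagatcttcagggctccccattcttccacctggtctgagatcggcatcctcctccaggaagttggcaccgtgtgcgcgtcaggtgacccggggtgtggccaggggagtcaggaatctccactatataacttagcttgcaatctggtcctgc
Agr2: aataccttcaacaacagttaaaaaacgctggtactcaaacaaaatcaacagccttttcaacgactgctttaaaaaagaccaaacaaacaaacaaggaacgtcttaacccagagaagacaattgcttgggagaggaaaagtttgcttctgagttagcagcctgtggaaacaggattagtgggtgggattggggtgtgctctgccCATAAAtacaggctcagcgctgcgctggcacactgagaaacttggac

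The E-box letters CAGCTG stood 112 bases before the start of Muc2 and 208 before that of Fcgbp, in 2 of the 5 windows. They were present in 16.3% of all 32851 windows of 300 bases in the table. The letters TTTATG were present in Agr2, 47 bases before the start, and in Spdef, 191 before it, against 11.9% of all windows. A TATAAA stood 174 bases before the start of Muc2 only, and 13.6% of all windows held one. The ETS core GGAA was in 5 of 5 windows and in 96.0% of all, and the core GGAT in 4 of 5 and in 79.6%, so that both were common everywhere. The E-box forms CATCTG (17.2% of all windows) and CACGTG (7.15%) were in 0 of the 5 windows. So were the Cdx form TTTATT (19.6%), the forkhead form TGTTTAC (3.65%) and the spaced palindrome of Stat6 (6.95%). Both strands were searched throughout. These matches describe letters in a window and not binding.

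Muc2, the structural mucin of the gel, lies on chromosome 7 from 141690340 to 141754691. Its level was 10.97, 11.45 and 11.18 on day 4, 11.32, 11.29 and 11.18 on day 7, 11.37, 11.25 and 11.15 on day 9, and 11.21, 10.86 and 11.22 on day 11. After weaning it was 11.54, 11.56 and 11.59 on day 24, and 12.34, 12.50 and 12.86 on day 32. The 3 arrays of day 24, at 11.54 to 11.59, lay above every suckling array and below every array of day 32. The age means of 11.57 ± 0.03 on day 24 and 12.57 ± 0.27 on day 32 thus formed separate steps above the suckling means, which ran from 11.10 ± 0.20 to 11.26 ± 0.07 (SD, n = 3).

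Fcgbp, chromosome 7 from 28071236 to 28120864, encodes a large mucus protein with repeated von Willebrand domains that is found bound within the Muc2 gel. Its level was 10.80, 11.43 and 11.26 on day 4, 11.22, 11.18 and 10.72 on day 7, 11.22, 11.15 and 11.08 on day 9, and 11.16, 10.78 and 11.24 on day 11. In weaned mice it was 11.54, 11.75 and 11.57 on day 24, and 11.90, 12.05 and 12.02 on day 32. Day 24 lay above all suckling arrays and day 32 above all of day 24, as for Muc2, but with a smaller second step, from 11.62 ± 0.11 to 11.99 ± 0.08.

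Clca1, chromosome 3 from 145004537 to 145032776, encodes a secreted metalloprotease that processes the mucin gel. Its level was 10.36, 10.51 and 10.23 on day 4, 10.14, 9.91 and 10.02 on day 7, 10.60, 10.33 and 10.77 on day 9, and 10.03, 10.22 and 10.83 on day 11. On the weaned arrays it was 11.999, 12.49 and 11.98 on day 24, and 12.56, 12.65 and 12.66 on day 32. Both later ages lay above every suckling array, and day 32 (12.63 ± 0.05) lay above day 24 (12.16 ± 0.29) without overlap. A second probe set read far lower, from 2.36 to 2.83 on the suckling arrays, near or below the array medians, and from 5.00 to 5.48 after weaning, and gave the same division.

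Zg16, chromosome 7 from 127050156 to 127052675, encodes a small lectin-like mucus protein that binds the cell wall of Gram-positive bacteria. Its level was 4.81, 4.63 and 4.60 on day 4, 3.96, 4.14 and 4.38 on day 7, 4.27, 4.12 and 4.13 on day 9, and 4.38, 4.45 and 4.66 on day 11. After weaning it was 12.92, 13.20 and 13.25 on day 24, and 12.88, 13.02 and 13.11 on day 32. The suckling arrays stood within 1 log2 unit of the array medians, and the weaned arrays were among the brightest values of the table, which ended at 13.71. Means of day 24 (13.12 ± 0.18) and day 32 (13.00 ± 0.11) overlapped in their arrays. Before weaning, day 4 (4.68 ± 0.12) lay above day 7 (4.16 ± 0.21) without overlap, and day 11 (4.50 ± 0.15) lay above day 9 (4.17 ± 0.08) without overlap, differences of -0.52 and 0.32 close to background. The other 2 probe sets of the gene gave the same division, at mean levels of 3.93 and 3.07 before and 11.80 and 12.84 after weaning.

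Tff3, chromosome 17 from 31125306 to 31129611, is the trefoil peptide of intestinal goblet cells, a small secreted protein that aids epithelial repair. Its level was 12.60, 12.71 and 12.64 on day 4, 12.72, 12.62 and 12.40 on day 7, 12.63, 12.51 and 12.63 on day 9, and 12.36, 12.43 and 12.50 on day 11. The weaned arrays stood at 12.84, 13.16 and 13.23 on day 24, and 12.80, 13.02 and 13.03 on day 32. The lowest weaned array, at 12.80, lay just above the highest suckling array, at 12.72, so that the stages were barely apart. The probe set was bright at every age, from 12.36 to 13.23.

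Agr2, chromosome 12 from 35992925 to 36004081, is a protein disulfide isomerase of the endoplasmic reticulum that mucin production depends on. Its level was 9.05, 8.85 and 9.10 on day 4, 9.18, 9.33 and 9.24 on day 7, 9.20, 8.97 and 9.38 on day 9, and 8.66, 9.35 and 9.39 on day 11. The weaned arrays stood at 10.60, 11.30 and 11.13 on day 24, and 10.99, 11.35 and 11.57 on day 32. All weaned arrays lay at 10.60 or higher and all suckling arrays at 9.39 or lower. Day 24 (11.01 ± 0.37) and day 32 (11.30 ± 0.29) overlapped. A second probe set moved from 6.93 to 7.50 before weaning to 8.41 to 8.71 after it.

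Retnlb, chromosome 16 from 48816856 to 48818892, encodes RELM-beta, a small cysteine-rich antibacterial protein that goblet cells secrete. Its level was 2.83, 2.88 and 2.87 on day 4, 2.74, 3.05 and 2.76 on day 7, 2.76, 3.04 and 2.89 on day 9, and 2.93, 2.75 and 2.87 on day 11, all below the array medians. The weaned arrays stood at 2.92, 6.04 and 6.75 on day 24, and 5.90, 8.83 and 6.14 on day 32. Day 24 replicate 1, at 2.92, lay inside the suckling range of 2.74 to 3.05, so that Retnlb was the gene of the 9 whose stages overlapped. The other 5 weaned mice spanned almost 3 log2 units, and the SD was 2.04 on day 24 and 1.62 on day 32, against 0.03 to 0.17 at the suckling ages.

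**Figure D1:**
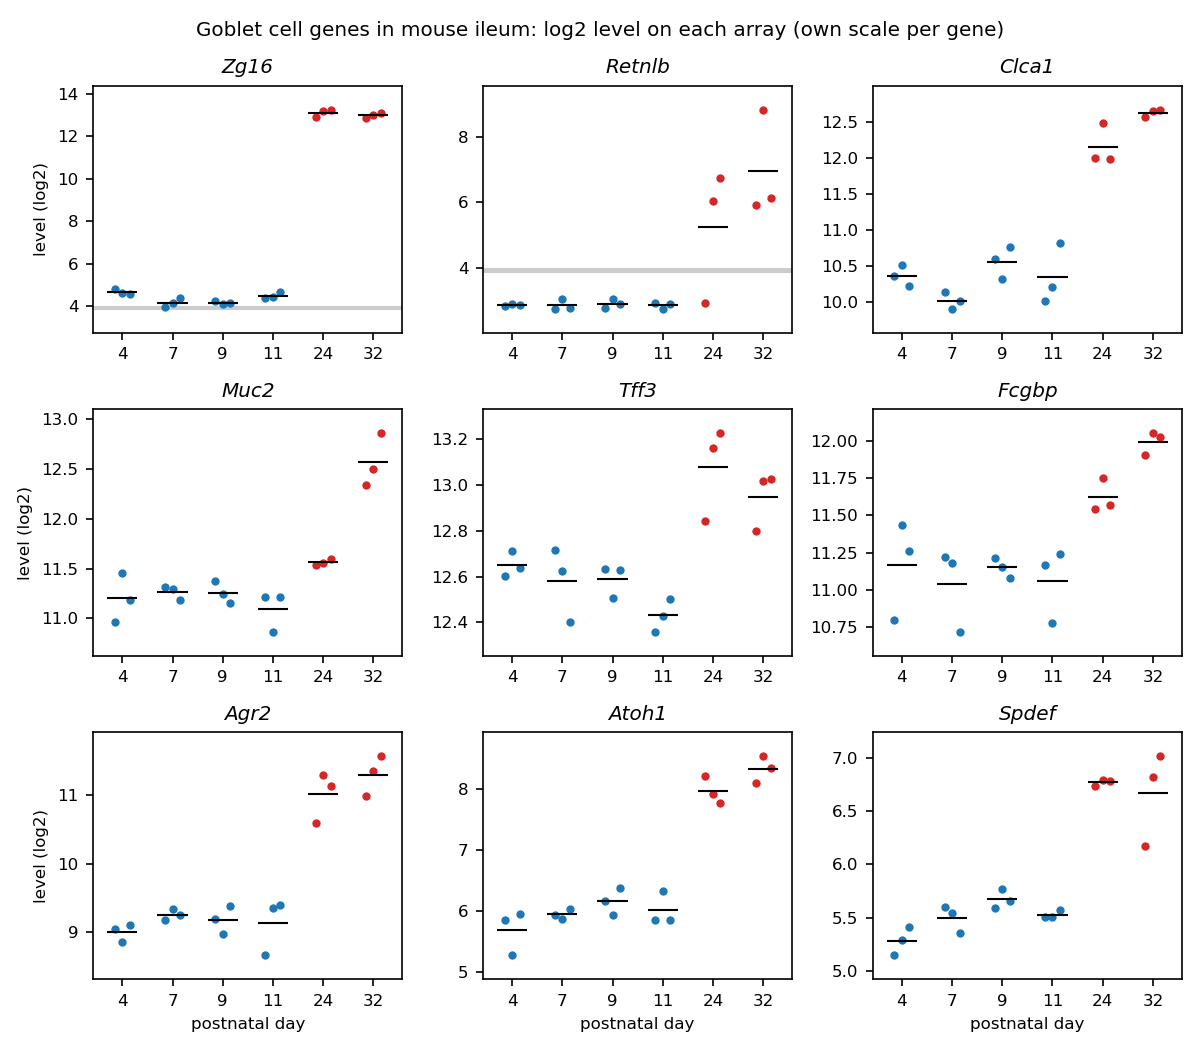
Log2 expression level (vertical axis, own scale for each gene) of the 9 goblet cell genes against postnatal day, 1 point per array, blue before and red after weaning, with a bar at the mean of each age (n = 3 mice); the grey band, where in range, spans the array medians of 3.88 to 3.97. The red points lie above all blue points for 8 genes; for Retnlb 1 red point of day 24, at 2.92, lies among the blue points.

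Between the stages, all 9 genes were higher after weaning, by amounts that ran from 1.37-fold for Tff3 to 412-fold for Zg16. A gene was called when its limma p-value, Benjamini-Hochberg adjusted over the 8631 genes tested, was below 0.05. At that threshold all 9 also changed across the 6 ages (F test), where 68.3% of all genes did. Comparing the mean of both later ages with that of the 4 earlier ones, 9 of 9 were called higher and 0 lower, where 31.1% of all genes were called higher and 41.8% lower. Of the 6 that reached the filter on suckling arrays, 6 rose. The other 3, Zg16, Retnlb and Spdef, passed it only through weaned arrays, which favours a call in this direction. A call alone therefore says little about these genes, and the sizes follow. Errors are standard errors of the fit.

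The lineage factors differed in size. Atoh1 rose by 2.19 ± 0.11 on the log2 scale, or 4.57-fold (limma adjusted p = 3.4e-12). Spdef rose by 1.23 ± 0.10, or 2.34-fold (limma adjusted p = 1.51e-09). Agr2, the folding enzyme, rose 4.04-fold (limma adjusted p = 5.26e-11), and 2.52-fold on its second probe set.

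The secreted proteins fell into a wide range. Zg16 rose by 8.69 ± 0.08 on the log2 scale (412-fold, limma adjusted p = 1.13e-22), from a mean level of 4.38 to 13.06. Its lower level was near background, so that the fold depends on the background correction, and its other probe sets gave 233-fold and 875-fold. Clca1 rose by 2.06 ± 0.11 (4.17-fold, limma adjusted p = 6.42e-12). Muc2 and Fcgbp moved less: Muc2 rose by 0.86 ± 0.09 (1.82-fold, limma adjusted p = 6.13e-08) and Fcgbp by 0.70 ± 0.10 (1.63-fold, limma adjusted p = 4.68e-06). Tff3 rose by 0.45 ± 0.07 (1.37-fold, limma adjusted p = 1.63e-05). Retnlb rose by 3.23 ± 0.44 (9.40-fold, limma adjusted p = 3.16e-06), with the stages overlapping, and leaving out single arrays moved this log2 difference between 2.77 and 3.81.

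Within the suckling period the fit compared day 11 with day 4, and other pairs of suckling ages had no fit of their own. For day 11 minus day 4, 0 of 9 genes passed limma in either direction, where 1.34% of all genes were called higher and 1.54% lower, and 0 of 9 had an unadjusted p below 0.05. Tff3 differed by -0.22 ± 0.12 on the log2 scale (limma adjusted p = 0.316) and Spdef by 0.25 ± 0.16 (limma adjusted p = 0.42); in both genes the 3 arrays of day 11 did not overlap those of day 4. Atoh1 differed by 0.32 ± 0.18 (limma adjusted p = 0.357). The other 6 genes lay between -0.19 and 0.14. Over all pairs of the 4 suckling ages, 11 of 54 gene and age pairs had arrays that did not overlap. The share over all tested genes was not counted, so that this number and the pairs named next are description only. Among them Zg16 was lower on day 7 than on day 4 (a difference of -0.52), Clca1 was higher on day 9 than on day 7 (0.54), and Spdef on day 9 (0.39) and Agr2 on day 7 (0.25) were higher than on day 4. The split of all called genes over the directions depended on scaling here, with 46.6% of them higher as deposited, 58.8% after cyclic loess and 37.5% after median centring, and 0 members were called under any of these.

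From day 11 to day 24, the interval that holds weaning, all 9 genes rose. Of these, Zg16, Retnlb and Spdef passed the filter only through weaned arrays. The background was 26.9% of genes called higher and 32.3% lower. Zg16 rose by 8.63 ± 0.13 on the log2 scale (395-fold), Atoh1 by 1.95 ± 0.18 (3.86-fold), Agr2 by 1.88 ± 0.20 (3.67-fold), Clca1 by 1.80 ± 0.18 (3.48-fold) and Spdef by 1.24 ± 0.16 (2.37-fold), with limma adjusted p-values from 7.08e-19 for Zg16 to 2.15e-06 for Spdef. The arrays of day 11 and day 24 did not overlap in these 5 genes, nor in Tff3, Fcgbp and Muc2, while those of Retnlb did. The share of all tested genes without overlap was not counted. Tff3 rose by 0.65 ± 0.12 (1.57-fold, limma adjusted p = 0.000115), Fcgbp by 0.56 ± 0.16 (1.47-fold, limma adjusted p = 0.0067) and Muc2 by 0.47 ± 0.14 (1.38-fold, limma adjusted p = 0.00912). Retnlb rose by 2.39 ± 0.73 (5.23-fold, limma adjusted p = 0.00883). The Muc2 call was lost without day 11 replicate 2 (0.35, limma adjusted p = 0.0579), and the Retnlb call without day 24 replicate 3 (1.63, limma adjusted p = 0.0687). Without day 24 replicate 1 the Retnlb difference was 3.55. On the higher hybridization group alone the calls ended for Fcgbp (0.46, limma adjusted p = 0.148), Muc2 (0.35, limma adjusted p = 0.272) and Retnlb (2.31, limma adjusted p = 0.18).

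Between day 24 and day 32 Muc2 was the gene of the 9 that was called. It rose by 1.00 ± 0.14 on the log2 scale, or 2.0-fold (limma adjusted p = 0.000165), beside 0.47 over the preceding interval. The background was 6.11% of genes called higher and 6.22% lower, and 0 of the 9 were lower; the share of calls in the higher direction was 49.5% as deposited and 37.4% after quantile normalization. Clca1 differed by 0.47 ± 0.18 (limma adjusted p = 0.0935) and Fcgbp by 0.37 ± 0.16 (limma adjusted p = 0.146), both with day 32 above day 24 on every array. Retnlb differed by 1.72 ± 0.73 (limma adjusted p = 0.131), and by -0.38 when day 24 replicate 1 and day 32 replicate 2, its lowest and highest weaned arrays, were both left out. Atoh1 (0.36 ± 0.18), Agr2 (0.29 ± 0.20), Tff3 (-0.13 ± 0.12), Zg16 (-0.12 ± 0.13) and Spdef (-0.10 ± 0.16) had limma adjusted p-values of 0.206 to 0.708. Clca1 passed in some settings, at 0.64 (limma adjusted p = 0.0331) without day 24 replicate 2 and at 0.47 (limma adjusted p = 0.0432) without day 11 replicate 3, and Retnlb at 2.48 (limma adjusted p = 0.0486) without day 24 replicate 3. Whether Muc2 changed more than the other genes over these 8 days was not tested. The last comparisons share the arrays of day 24, so that a low day 24 array enters them with opposite signs.

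**Figure D2:**
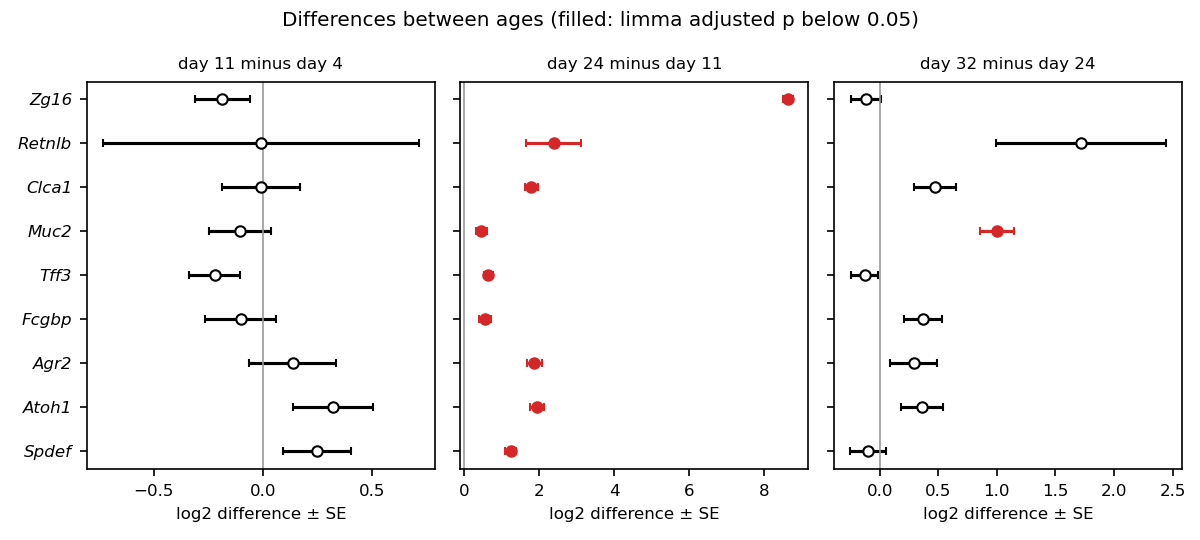
Log2 difference (horizontal axis, own scale per panel) with its standard error for each of the 9 genes between day 11 and day 4, day 24 and day 11, and day 32 and day 24, from limma over 18 arrays; filled red points have an adjusted p below 0.05. No point is filled in the first panel, all 9 are in the second, and Muc2 at 1.00 is the filled point of the third.

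To ask whether the genes changed by unequal factors, each was set against Muc2 on the same array, and the array differences of the 6 weaned mice were compared with those of the 12 suckling mice (exact 2-sided permutation test over 18564 arrangements, adjusted over the 8 genes). Zg16 gained 7.82 on Muc2, Retnlb 2.37, Atoh1 1.33, Clca1 1.20 and Agr2 1.15 log2 units. The adjusted exact p was 0.00112 for Retnlb and 0.000108 for the other 4, whose raw p of 5.39e-05 is the smallest that the arrangements allow. Before weaning Zg16 and Retnlb had mean levels of 4.38 and 2.86, near or below the array medians. Both passed the filter only through weaned arrays, as did Spdef. The gains of Zg16 and Retnlb thus depend on the background correction, and their p-values add little. Tff3 lost 0.41 (a change of -0.41, adjusted exact permutation p = 0.0424), a call that ended on leaving out most single arrays, with values from -0.55 to -0.25. Its array differences had an SD of 0.64 after and 0.15 before weaning. The values against Muc2 pool day 24 and day 32, between which Muc2 itself rose by 1.00. They need not hold at either age alone. Spdef gained 0.37 (adjusted exact permutation p = 0.0841), 0.53 (adjusted exact permutation p = 0.0123) without day 32 replicate 1 and 0.47 (adjusted exact permutation p = 0.0386) without day 32 replicate 3. Fcgbp differed by -0.16 (adjusted exact permutation p = 0.212), with array differences from -0.84 to 0.19 after and -0.46 to 0.08 before weaning; without day 24 replicate 2 it was -0.25 (adjusted exact permutation p = 0.0412).

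The share of epithelium in the pieces could also move, and the genes were therefore set against epithelial genes on the same array. The mean level of 11 epithelial genes was 10.56 before and 11.33 after weaning, a rise of 0.77 (exact permutation p = 5.39e-05), to which Krt20, a keratin of differentiated cells, contributed a 20.6-fold rise. Of the 11 genes 7 rose and 2 fell. Epcam, the adhesion molecule of all intestinal epithelial cells, fell by 0.22 (limma adjusted p = 0.00326) and the keratin Krt18 by 0.80 (limma adjusted p = 8.61e-09), while Lgals4 (0.05) and Tjp1 (0.01) were not called. Cdh1 rose by 0.37 and Vil1, the microvillus protein, by 0.97 (limma adjusted p = 4.16e-05 and 5.12e-10). Against the list mean, Zg16 gained 7.92, Retnlb 2.46, Atoh1 1.42, Clca1 1.29, Agr2 1.25 and Spdef 0.46 log2 units, and Tff3 lost (-0.32), with adjusted exact permutation p-values from 0.000121 to 0.00097. Muc2 differed by 0.09 and Fcgbp by -0.07 (adjusted exact permutation p = 0.579 for each). The array differences of Muc2 ran from 0.18 to 1.42 after and from 0.24 to 0.93 before weaning. Day 24 and day 32 were pooled here, so that the 0.09 need not hold at either age. Against Epcam alone Muc2 gained 1.08, Fcgbp 0.92 and Tff3 0.67 (adjusted exact permutation p = 6.06e-05, 6.06e-05 and 0.000162), so that these 3 genes depended on the reference. Against the median of the list Spdef gained 0.21 (adjusted exact permutation p = 0.0871) and Fcgbp lost (-0.32, adjusted exact permutation p = 0.00838). Zg16, Retnlb, Clca1, Agr2 and Atoh1 kept their call against the list mean, the list median and Epcam. For Zg16 and Retnlb these gains, too, start near or below the array medians. Zg16, Retnlb and Spdef passed the filter only through weaned arrays.

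Retnlb varied widely between weaned mice, from 2.92 to 8.83. On day 24 replicate 1 it lay 2.99 log2 units below the lowest of the other 5 weaned arrays, the second largest such gap among the 8631 genes. The 5 other genes with the largest gaps, chosen after their values were seen, were Saa1 (a gap of 6.11) and Saa2 (2.68), serum amyloid A proteins of epithelial and acute-phase responses, Slc6a14 (2.95), an amino acid transporter, and the glycosyltransferases B3gnt7 (2.55) and B3galt5 (2.53). Saa1 stood at 4.68 on that array, from 10.79 to 11.93 on the other weaned arrays and from 2.79 to 4.67 on the suckling arrays. Slc6a14 stood at 3.44, against 6.39 to 9.91 and 3.03 to 4.22. On this array Slc6a14 and Retnlb thus lay inside the suckling range and Saa1 at its upper edge.

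At the other end, day 32 replicate 2 held Retnlb at 8.83, 2.07 above the next weaned array, the largest such gap of all genes tested, followed by Slc6a14, at 9.91 with a gap of 1.20. For the other 8 goblet genes day 24 replicate 1 lay above every suckling array. Atoh1 was highest of its age there, at 8.21, while the 7 genes other than Atoh1 and Clca1 were lowest of their age. On day 32 replicate 1 all 9 genes were the lowest of the 3 mice. The share of all tested genes that were lowest on these arrays was not counted. What moved with these arrays was not tested further.

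**Figure D3:**
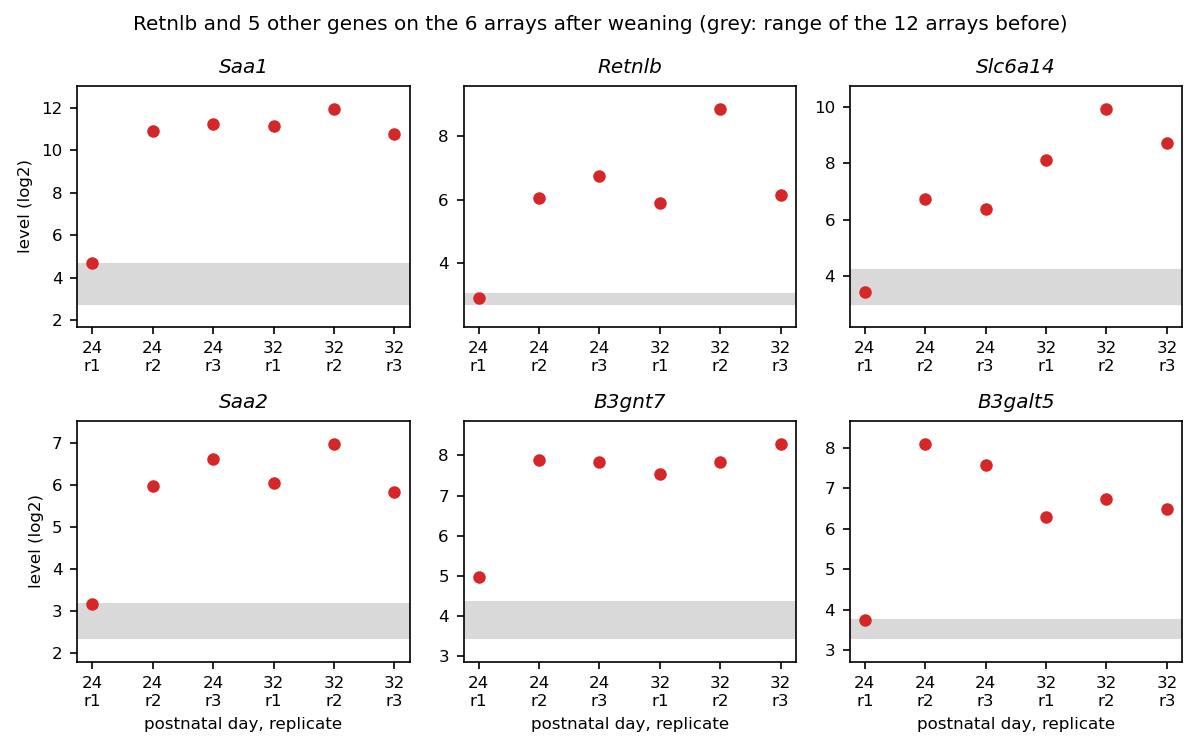
Log2 level of Retnlb and of the 5 other genes with the largest gap between day 24 replicate 1 and the remaining weaned arrays, on each of the 6 weaned arrays (horizontal axis: postnatal day and replicate); the grey band is the range of the 12 suckling arrays. Day 24 replicate 1 lies inside or near the band in the 6 panels, for example Retnlb at 2.92, and day 32 replicate 2 is highest for Retnlb at 8.83.

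Most other tested genes of goblet cells rose as well. Of 30 further goblet cell genes, 27 were tested, and 22 rose and 2 fell between the stages, with a median log2 difference of 1.19 where the median of all genes was -0.073. The counts of this and the following lists stand beside the 31.1% of all genes that rose and the 41.8% that fell. These lists, too, were chosen with earlier results of these data known. Of the 20 that reached the filter on suckling arrays, 15 rose and 2 fell. Oit1, a secreted protein, rose 15.7-fold (3.98 ± 0.11, limma adjusted p = 7.16e-16), Klk1, the tissue kallikrein, 12.3-fold (3.63 ± 0.17, limma adjusted p = 8.7e-13) and Scin, an actin-severing protein, 5.76-fold (2.53 ± 0.12, limma adjusted p = 7.47e-13). Tspan13 fell by 0.64 and Guca2a, the precursor of the peptide guanylin, by 0.98 on the log2 scale. For day 11 minus day 4 none of the 27 was called in limma, and 5 had an unadjusted p below 0.05. In the last interval 4 rose and 1 fell, with Oit1 up by 1.61 and Ccl9, a chemokine, down (-0.86).

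Of the membrane-bound mucins of enterocytes, Muc4 rose 5.71-fold and Muc3 5.51-fold, and Muc13 1.59-fold, 3 of the 4 tested genes of a list of 12 other mucins and trefoil peptides; the median log2 difference was 1.56. Muc4 passed the filter through the weaned arrays, its mean level before weaning being 3.34, below the array medians. Of the other 3, 2 rose. Tff1, the trefoil peptide of the stomach, differed by 0.09 ± 0.09 (limma adjusted p = 0.424). The gel-forming mucins of stomach and airway, Muc5ac (3.86 to 4.91) and Muc5b (4.14 to 4.72), and the gastric trefoil peptide Tff2 (3.12 to 3.64) stayed under the filter at every age. Muc3 was called already between days 4 and 11 (0.63 ± 0.11, limma adjusted p = 0.0039), but not on the arrays of these ages alone (limma adjusted p = 0.0958). From day 24 to day 32 Muc4 rose by 1.58 and Muc3 by 0.80.

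Genes listed under mucin glycosylation went both ways. Of 21 tested genes of 27, 15 rose and 5 fell, with a median of 0.63. Of the 20 that reached the filter on suckling arrays, 14 rose and 5 fell. St3gal1, which caps core chains with sialic acid, fell 27.1-fold (-4.76 ± 0.12, limma adjusted p = 1.11e-16). B4galnt2, which makes the Sda antigen of the gut, rose 6.36-fold. B4galnt1, a listed enzyme that acts on glycolipids, rose 6.19-fold. Gcnt3, a core-branching enzyme of mucins, rose 3.00-fold and Galnt3, which starts the chains, fell 1.48-fold; both were named after their values were seen. In the last interval Gcnt1, another branching enzyme, rose 5.40-fold (2.43 ± 0.32, limma adjusted p = 8.27e-05). It passed the filter through the day 32 arrays, its mean level being 3.15 before weaning and 4.46 on day 24. Gcnt1 could thus enter the test only by being high on day 32.

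Folding and transport genes serve the secretory load of the cell, as Agr2 does. Of 23 tested genes of 25, 15 rose and 1 fell, with a median of 0.32. Of the 21 that reached the filter on suckling arrays, 13 rose and 1 fell. Ern2, the goblet cell form of the stress sensor IRE1, rose 3.66-fold (1.87 ± 0.13, limma adjusted p = 4.69e-10), Fkbp11 2.47-fold and Ern1 1.81-fold. Ern2 and Fkbp11 passed the filter only through weaned arrays, their mean levels before weaning being 4.30 and 4.74. Hspa5, the main chaperone of the compartment, differed by 0.11 ± 0.08 (limma adjusted p = 0.195), named after its value was seen.

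Among 19 other transcription factors of secretory fate, 14 were tested, and 8 rose and 5 fell, with a median of 0.47; the number that fell was 2 after cyclic loess. Of the 11 that reached the filter on suckling arrays, 6 rose and 5 fell. Tcf7l2, the Wnt effector, rose 4.51-fold, Bhlha15, which enlarges the secretory apparatus of gland cells, 3.97-fold (1.99 ± 0.13, limma adjusted p = 1.3e-10) and Klf4, a factor of goblet cell differentiation, 2.34-fold (1.23 ± 0.09, limma adjusted p = 7.66e-10). Bhlha15 passed the filter only through weaned arrays, its mean level before weaning being 4.51. Gfi1, which lies under Atoh1 in the goblet and Paneth lineage, was below the filter, at 2.71 to 5.10. Between day 24 and day 32 Gata4 fell by 2.05 and Cdx2 by 0.85, the latter not called with the mean of its probe sets (-0.67, limma adjusted p = 0.0644). Gata4 passed the filter only with weaned arrays counted. Its mean level was 5.53 before weaning, 6.24 on day 24 and 4.18 on day 32, so that its fall starts from the age that let it enter.

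The Notch pathway restrains Atoh1 in progenitors. Of 13 tested genes of 20, all of which reached the filter on suckling arrays, 3 rose and 8 fell (7 under each other scaling), with a median of -0.33, where 31.1% of all genes rose and 41.8% fell. Notch3 fell 3.13-fold (-1.65 ± 0.13), Jag1 2.17-fold (-1.12 ± 0.08) and Dll1, a ligand of secretory progenitors, by -0.77 ± 0.10 on the log2 scale, with limma adjusted p-values of 2.03e-09, 6.1e-10 and 1.12e-06. Hes1, the target through which Notch represses Atoh1, fell by 0.17 on the log2 scale, with a standard error of 0.07 (limma adjusted p = 0.0451), and was named after its value was seen. Notch3 and Jag1 are also expressed in vessels and stroma, which these pieces held.

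Genes of granule release and of the bicarbonate supply that unpacks mucus went both ways. Of 17 tested, 11 rose and 3 fell, with a median of 0.46. Of the 14 that reached the filter on suckling arrays, 8 rose and 3 fell. Car4, a carbonic anhydrase of the brush border that supplies bicarbonate, rose 50.5-fold (5.66 ± 0.26, limma adjusted p = 6.23e-13), Slc26a6, an anion exchanger, 6.49-fold and Slc4a4, a bicarbonate cotransporter, 4.15-fold. The mean level of Car4 before weaning, 2.97, was below the array medians and it passed the filter through the weaned arrays, so that its fold depends on the background correction. Car4 was lower by 2.04 on day 24 replicate 1 than on any other weaned array, at 6.51. In the last interval Slc9a3, the sodium-proton exchanger, fell by 1.60 and Slc4a4 rose by 0.94, a call that ended with the mean of its probe sets (0.28, limma adjusted p = 0.0702). The meprin Mep1b, which cuts Muc2 free from the epithelium, rose 2.97-fold and the channel Cftr 2.14-fold, both named after their values were seen.

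Type 2 cytokines, which induce Retnlb in worm-infected intestine, were under the filter. Il4 (2.57 to 3.46), Il5 (2.51 to 3.07), Il13 (3.58 to 4.30) and Il25 (2.37 to 3.64) stayed near or below the array medians at every age. So did the listed tuft cell markers Dclk1 (3.80 to 4.62), Trpm5 (3.04 to 3.76), Gfi1b (3.12 to 4.11) and Sh2d6 (3.02 to 3.70). Other listed tuft cell genes, also under the filter, reached higher: Pou2f3 (4.41 to 4.92), Avil (3.56 to 5.08) and Alox5ap (4.41 to 5.98). Of 4 tested genes of 19, the receptor chain Il13ra1 rose 2.10-fold, Stat6 1.17-fold, and Il4ra fell 1.26-fold. The Il4ra call ended on the higher hybridization group alone (-0.28, limma adjusted p = 0.061). Il33, an alarmin of epithelium and stroma, rose by 1.25 from day 11 to day 24 and fell by 1.77 from day 24 to day 32.

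Relatives of Retnlb and Clca1 did not all follow them. Of 4 tested genes of 10 in these families, Clca4a rose 34.6-fold (5.11 ± 0.23), Clca3b 12.9-fold (3.69 ± 0.16) and Retn, the adipocyte hormone resistin, 8.76-fold (3.13 ± 0.20), while Clca4b, an enterocyte gene, fell 1.32-fold (-0.40 ± 0.07); their limma adjusted p-values ran from 2.26e-13 to 4.14e-05. Clca3b and Retn passed the filter through the weaned arrays, and of the other 2 genes 1 rose and 1 fell. These close relatives may share probes, which makes their separate values uncertain. Retnla, another relative of Retnlb, was below the filter, at 3.92 to 5.41. The lists in this and the preceding paragraphs are described by counts and medians, and nothing is called particular to one of them.

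**Figure D4:**
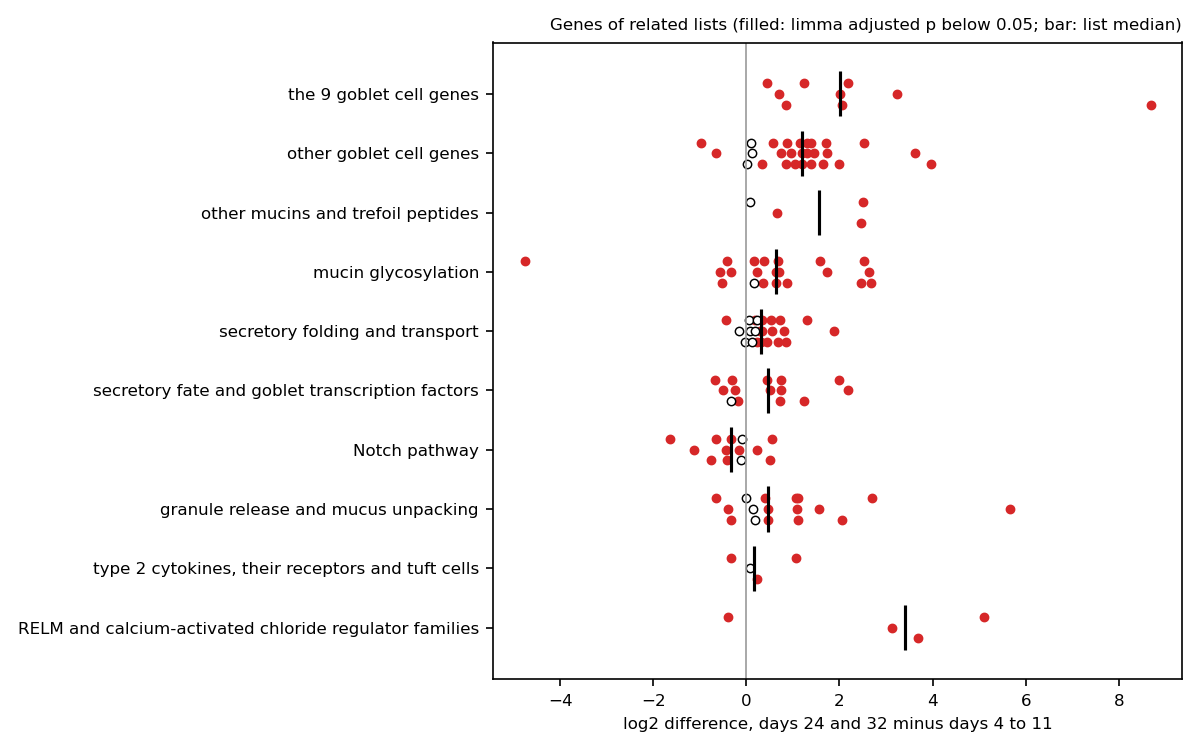
Log2 difference between weaned and suckling mice (horizontal axis) of the 9 goblet cell genes and of the tested genes of each related list, 1 point per gene, filled red where the limma adjusted p was below 0.05, with a vertical bar at the list median. The medians run from -0.33 for the Notch pathway to 3.41 for the RELM and calcium-activated chloride regulator families, of whose 4 genes 2 passed the filter through weaned arrays, with 2.01 for the 9 genes. Of the 9 genes, 3 passed the filter in the same way.

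Markers of other cells moved beside the goblet genes. Paneth cells, the other granule-bearing secretory cells of the crypt, gave a mean level over 6 tested markers of 6.16 to 7.85 before and 11.14 to 11.53 after weaning, and 6 of 6 rose. Of these 6, 3 were called already between days 4 and 11, Defa39, whose probes may also read related defensins, by 3.06 ± 0.19 and Itln1 by 2.71 ± 0.15 (limma adjusted p = 1.77e-08 and 1.05e-08); whether they differed from the goblet genes in this was not tested. Of the 5 Paneth markers that reached the filter on suckling arrays, 5 rose between the stages. Enteroendocrine markers (9 tested of 12) had means of 7.32 to 7.65 and 6.99 to 7.73, and smooth muscle markers (6) of 10.38 to 10.76 and 10.39 to 10.88, so that the stages overlapped in both. Lymphocyte markers (5 tested of 10, all through weaned arrays) went from 3.58 to 3.89 up to 6.18 to 9.93. Pancreatic acinar markers (2 tested of 9) had means of 6.31 to 7.75 and 7.21 to 7.95. Of 11 gastric and colonic markers 2 were tested, and the gastric genes Gkn1 (2.91 to 3.57) and Atp4a (2.85 to 3.55) and the colonic gene Aqp8 (3.06 to 4.67) stayed near background. B3galt5 rose 7.98-fold and the colonic gene Car1 ran from 2.79 to 6.81, and the list mean was 4.86 to 5.38 before and 5.16 to 7.57 after weaning. B3galt5 passed the filter only through weaned arrays, its mean level before weaning, 3.49, being below the array medians. The part of Paneth cells, lymphocytes and colonic-type epithelium in the goblet values was not tested.

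The genes whose age profile lay nearest to each of the 9 were found by the root-mean-square difference of the 6 age means after centring each gene. Atoh1 and Agr2 had each other as the nearest of the 9, at 0.132 log2 units, and Clca1 had Atoh1 at 0.185. Muc2 and Fcgbp were 0.206 apart and Tff3 and Fcgbp 0.194. Spdef lay 0.311 from its nearest, Fcgbp, and Retnlb 0.642 from Atoh1. Zg16 had no near neighbour among them, its nearest being Retnlb at 2.631.

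Outside the 9, the nearest to Spdef was Spink4, itself a goblet cell product, at 0.056, with age means of 11.00 on day 4, 11.37 on day 9, 11.25 on day 11 and 12.44 on day 32. Mkrn1 followed at 0.062. Agr2 was matched by Esrp1, an epithelial splicing factor, at 0.037 and by Nr3c2, the mineralocorticoid receptor, at 0.065, and Atoh1 by Slc25a24 at 0.066 and L1cam at 0.071. Muc2, with its second step after day 24, was matched by Fdps, an enzyme of isoprenoid synthesis, at 0.094 and by Iigp1, an interferon-inducible GTPase, at 0.107. Fcgbp was nearest to Wars (0.025) and Tedc1 (0.037), and Tff3 to Rnf123 (0.023) and Mtln (0.026). Clca1 was nearest to B4galt6 (0.121) and Plaat3 (0.145), and Retnlb to Slc25a48 (0.114) and Lamb3 (0.154). The nearest genes to Zg16 were the sulfate transporter Slc13a1 (0.71) and Cyp4f14 (0.774). Slc13a1 rose from 2.67 on day 11 to 9.56 on day 24 and 11.19 on day 32.

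Among the 12 suckling mice the 9 genes varied little together. Of 36 pairs, 0 passed after Benjamini-Hochberg adjustment and 19 had a positive Pearson coefficient. The strongest was Muc2 with Fcgbp (Pearson r = 0.80, permutation p = 0.00199, adjusted 0.0716; Spearman rho = 0.72, permutation p = 0.0109, adjusted 0.196). It was 0.60 without the 2 arrays farthest from the median of Muc2 and 0.88 within the 8 arrays of the lower hybridization group, the other group being too small. Zg16 with Spdef was negative (r = -0.76, permutation p = 0.00399, adjusted 0.0718; rho = -0.78, permutation p = 0.00367, adjusted 0.132), at -0.67 without the 2 farthest arrays and -0.59 within the lower group. Both failed the correction.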

How the data were processed

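RNA from 18 ileal pieces was measured on Affymetrix arrays. The authors deposited a log2 level for each probe set, and the submitters' processing notes name RMA, without a version. The number of arrays limits the precision. The platform annotation gave 1 symbol to 34958 of 45101 probe sets, several to 932 and none to 9211; Entrez identifiers matched 34754 to GRCm38.p6, and 0 symbols changed. Of these, 18194 genes had a probe set and 8631 reached a log2 level of 6 on 3 arrays, the threshold of the filter.

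Age effects were estimated by lmFit and eBayes of limma 3.58.1 (R 4.3.3), with 12 residual degrees of freedom and a median residual SD of 0.176. The fit was tested on simulated data. Ratios to Muc2 and to epithelial genes were tested by exact permutation. Promoter windows came from RefSeq; protein sequences were not used here. No replicate block was fitted, because replicate numbers follow accession order. The members and lists were chosen with earlier results of these data known. Named genes were the 9 members, up to 3 called genes per list between the stages and up to 2 in other comparisons, the 2 nearest profiles per member, and Epcam, Cdh1 and Vil1. Alternatives changed the filter, probe set, scaling, eBayes options, array weights, covariates and arrays.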

Additional observations from a re-analysis of the deposited data

Results flagged for a closer look

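Of the 9 genes, 1 had an array that stood apart from the other 5 of the weaned mice. Spdef on day 32 replicate 1 had a log2 level of 6.18, where the other 5 weaned arrays ran from 6.74 to 7.02. The gap was 0.667 of the range, above Dixon's 95% critical value of 0.625 for 6 arrays. Each of the 9 genes was examined in this way, and chance alone flags about 1 group in 20. On the same array the other 8 goblet genes were also the lowest of the 3 mice of day 32, and the share of all tested genes lowest there was not counted. Without it Spdef differed by 0.15 between day 32 and day 24 (limma adjusted p = 0.477).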

How the results depend on the processing

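Between the stages, across the 6 ages and from day 11 to day 24, all 9 genes kept their direction under every alternative that gave a value, and the calls between the stages and across the ages held under all of them. From day 11 to day 24, calls ended on the 10 arrays of the higher hybridization group for Fcgbp (0.46, limma adjusted p = 0.148), Muc2 (0.35, limma adjusted p = 0.272) and Retnlb (2.31, limma adjusted p = 0.18). The count of genes called between day 24 and day 32 was 1 as reported and 2 when probe sets of a gene were averaged (Clca1, 0.39) or with array weights (Retnlb, 2.13), and it was 1 to 2 over the single arrays left out. Small differences changed sign between day 4 and day 11. For Clca1 the value was 0.03 with the mean of the probe sets, 0.02 with quantile normalization, 0.04 with cyclic loess, 0.30 with array weights and 0.06 on its other probe set; on the higher hybridization group it was -0.29 for Agr2, 0.05 for Fcgbp, 0.0 for Muc2 and 0.07 for Retnlb. The other probe set of Agr2 gave -0.0 both there and between day 24 and day 32. Over single arrays left out, the day 11 differences ran from -0.24 to 0.16 for Clca1, -0.28 to 0.04 for Fcgbp, -0.22 to 0.02 for Muc2 and -0.05 to 0.04 for Retnlb, the day 32 difference of Spdef from -0.27 to 0.15, and Muc2 against epithelium from -0.05 to 0.20. Leaving out both extreme Retnlb arrays, chosen after seeing the data, gave -0.38 for its day 32 difference. Against the median of the epithelial list Muc2 was -0.16, and against Epcam Tff3 was 0.67 and Fcgbp 0.92. The causes were not tested. With no filter 10248 of 18194 genes were called between the stages, and with a filter at log2 8 it was 2866 of 3748, against 6293 of 8631. Retnlb and Zg16 before weaning lay near background, which limits their folds. No paired analysis was possible because the replicate numbers follow accession order and pair no mice.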
